A study of Mus musculus with 27 samples.

Results

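The 7 genes described here code for 5 antimicrobial secreted proteins (Lcn2, Saa3, Slpi, Camp and Ltf) and 2 formyl peptide receptors (Fpr1 and Fpr2). They were taken by gene name, and the array carries 8 probes for them among 55681 probes and 24217 named genes. Camp has 2 probes and every other gene has 1. Murine bone marrow-derived macrophages (BMDMs) from female C57BL/6 mice aged 6 to 8 weeks were grown for 7 days in medium conditioned by L929 cells, and RNA was hybridised to 1-colour Agilent arrays. Naive BMDMs received no ligand. Acutely stimulated BMDMs received 1 ligand for 4 h: LPS at 100 ng/ml (the ligand of TLR4), CpG DNA (TLR9), Pam3CSK4 at 100 ng/ml (TLR2) or Poly(I:C) at 10 µg/ml (TLR3). Re-stimulated BMDMs received the ligand for 24 h, were washed, rested for 1 h and received the same ligand again for 4 h. The dose of CpG is 100 µM in the sample labels and 1 µM in the methods. The cultures were primary cells, and the study describes each replicate both as a different mouse and as a pool of marrow, so the spread between replicates may be either.

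Lipocalin 2 (Lcn2) binds bacterial siderophores and so keeps iron from bacteria, lactoferrin (Ltf) binds iron itself, serum amyloid A3 (Saa3) is an acute phase protein made by macrophages among other cells, Slpi inhibits serine proteases, and Camp is the precursor of the cathelicidin peptide. Ltf and Camp are classical contents of neutrophil granules, and Lcn2 and Slpi are made by neutrophils, macrophages and epithelia. Fpr1 and Fpr2 are G protein-coupled receptors that sense formylated peptides of bacteria and guide phagocytes. In LPS-tolerant macrophages, antimicrobial genes are known as a class that keeps or gains its response on a second stimulation, while many cytokine genes lose theirs.

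The deposited log2 values cover 25 arrays, with 3 arrays in each of 7 groups and 2 for LPS re-stimulated (replicates 1 and 2) and for acute Pam3CSK4 (replicates 1 and 3). Arrays of the same replicate number shared a slide in all groups except acute LPS, whose arrays lay on 3 other slides with other scan days. The acute LPS arrays were also read with another design file, in which 6580 spots carried another gene name under the same probe identifiers. Slide, scan day, design file and acute LPS thus cannot be told apart. Between 42.1% and 54.3% of probes were well above background on 24 arrays. Naive replicate 3 stood apart with 74.6%, and comparisons with naive cells are given below with and without it. All 7 macrophage markers present on the array, among them Csf1r, Emr1 (which codes for F4/80) and Cd68, were well above background on all 25 arrays, and the log2 of their summed level lay between 19.01 and 19.53. Of 12 neutrophil and granulocyte precursor markers, 10 to 12 were well above background on naive arrays, 5 or 6 on acute LPS arrays, and 5 to 12 on the others. The log2 of the summed neutrophil marker level was 12.50 on naive replicate 3 against 16.16 and 16.71 on naive replicates 1 and 2. It lay between 12.43 and 12.67 on the acute LPS arrays. These are bulk measurements, so fewer cells of a type and less RNA per cell cannot be told apart.

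Promoters of all 7 genes were found in the RefSeq table (GRCm38.p6), and the 250 bases before the start site were searched on both strands. Those of Lcn2, Saa3 and Slpi are printed because these were the members called higher after re-stimulation with more than 1 ligand. Each runs 5′ to 3′ on the gene's strand and ends at the base before the start site. Capitals mark matches to the C/EBP motif TTGCNNAA (searched on both strands, N being any base) or to the consensus of the interferon-stimulated response element.
Lcn2 (chr2:32387740-32387989, minus strand): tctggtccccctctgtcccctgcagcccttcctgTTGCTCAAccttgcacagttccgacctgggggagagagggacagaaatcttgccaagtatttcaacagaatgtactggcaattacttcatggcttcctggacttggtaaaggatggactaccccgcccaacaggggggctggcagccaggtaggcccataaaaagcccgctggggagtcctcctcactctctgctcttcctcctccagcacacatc
Saa3 (chr7:46715677-46715926, minus strand): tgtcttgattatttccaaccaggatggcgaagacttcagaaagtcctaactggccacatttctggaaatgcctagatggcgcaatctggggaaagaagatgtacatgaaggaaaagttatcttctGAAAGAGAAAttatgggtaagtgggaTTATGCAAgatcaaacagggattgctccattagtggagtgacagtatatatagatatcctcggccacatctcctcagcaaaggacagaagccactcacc
Slpi (chr2:164356508-164356757, minus strand): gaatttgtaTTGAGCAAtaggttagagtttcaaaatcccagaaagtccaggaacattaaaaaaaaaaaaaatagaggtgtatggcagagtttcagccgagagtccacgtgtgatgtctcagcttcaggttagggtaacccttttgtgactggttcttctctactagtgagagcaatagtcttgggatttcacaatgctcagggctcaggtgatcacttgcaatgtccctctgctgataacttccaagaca
The C/EBP letters were found once each in Lcn2, Saa3 and Slpi, and also once in Ltf, that is in 4 of the 7 members and in 9.56% of the 32851 mouse promoters of this length in the table. The interferon-stimulated letters were in Saa3 alone of the members and in 2.98% of all promoters. The AP-1 motif TGANTCA and the NF-kB consensus had no match in the windows of the 7 members, and matched in 6.75% and 7.25% of all promoters. The 2 receptor genes lie head to head on chromosome 17, Fpr1 on the minus and Fpr2 on the plus strand, with 3384 bases between their 250-base windows.

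Lcn2, Saa3 and Slpi were higher after re-stimulation than in naive cells for LPS, CpG and Pam3CSK4, and Saa3 and Slpi also for Poly(I:C). Slpi did not pass the test for any ligand after acute stimulation, while Saa3 was higher after acute LPS and acute CpG. Levels below are the deposited log2 intensities, which the authors quantile-normalised, and a gene was called where limma gave an adjusted p below 0.05 with at least a 1.5-fold difference. With so few arrays a group, the number of arrays limits the precision.

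**Figure D1:**
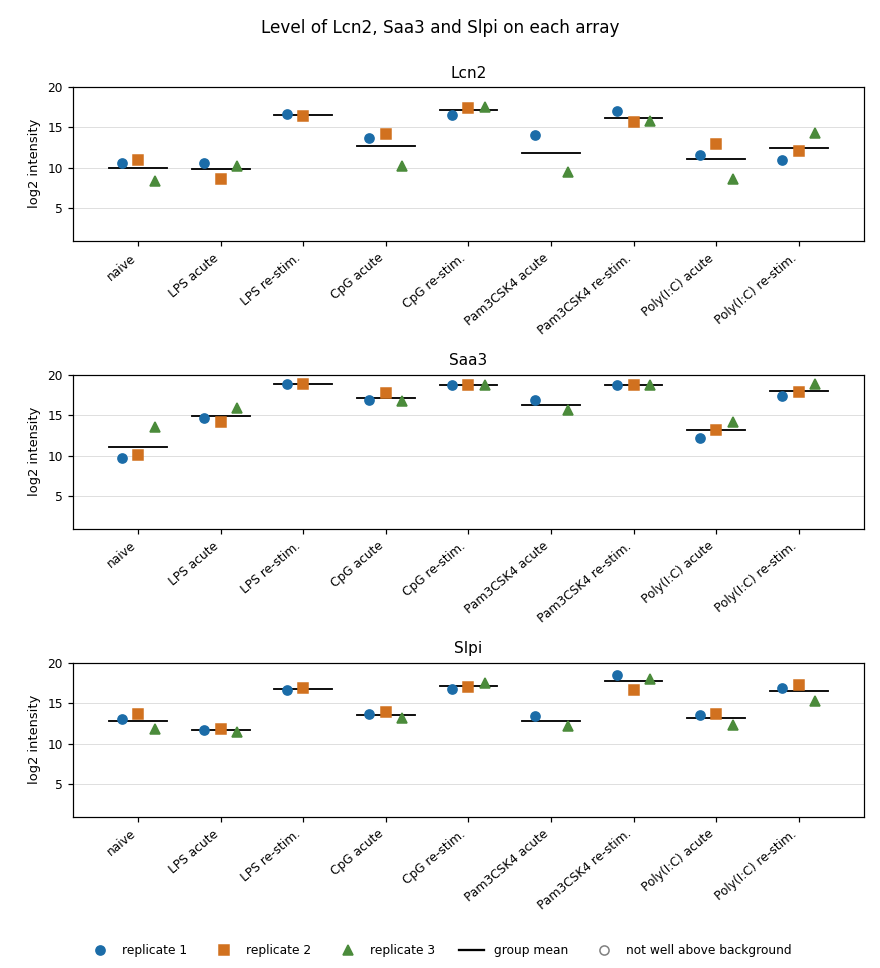
Log2 intensity (vertical axis) of Lcn2, Saa3 and Slpi on each of 25 arrays in 9 groups (horizontal axis), with the replicate number by symbol and the group mean as a line. The re-stimulated LPS, CpG and Pam3CSK4 arrays of Lcn2 lie at 15.63 or above, and those of Slpi for all 4 ligands lie at 15.27 or above, over all naive and acute arrays of the same gene.

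Lcn2 (probe at chromosome 2, 32240199 to 32240258 in mm9) lay at 10.60, 11.02 and 8.33 on naive replicates 1, 2 and 3 and at 10.61, 8.65 and 10.18 after acute LPS. After LPS re-stimulation it lay at 16.61 and 16.43, above every naive and acute array. Acute CpG gave 13.65, 14.21 and 10.22, and CpG re-stimulation 16.56, 17.31 and 17.45. Acute Pam3CSK4 gave 14.02 and 9.54, and re-stimulation 16.99, 15.63 and 15.76. For these 3 ligands no re-stimulated array overlapped an acute array, and replicate 3 was the lowest of its group after acute CpG and acute Pam3CSK4, as in naive cells. For Poly(I:C) the acute values (11.62, 12.91 and 8.62) and the re-stimulated values (10.96, 12.09 and 14.29) overlapped.

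LPS re-stimulated against acute LPS gave a difference for Lcn2 of 6.71 (standard error 0.56, adjusted p = 0.000833, limma), a 105-fold higher level. The call held in all 16 alternatives, which include each array left out and some repeats of the main test, given with the processing below. For CpG the difference was 4.41 (SE 1.00, adjusted p = 0.0635) and for Pam3CSK4 4.35 (SE 1.29, adjusted p = 0.259), and neither was called. Within slides the CpG differences were 2.91, 3.11 and 7.22, and without acute CpG replicate 3 the difference was 3.18 with an adjusted p of 0.013. Against naive cells Lcn2 was higher by 6.54 after LPS re-stimulation (adjusted p = 0.0293), by 7.12 after CpG (adjusted p = 0.00664) and by 6.14 after Pam3CSK4 re-stimulation (adjusted p = 0.022). The Pam3CSK4 call was lost with the replicate number as a block (adjusted p = 0.0546) and without any 1 of 5 arrays, all but naive replicate 3 (adjusted p up to 0.1). The LPS call was lost without any 1 of 4 arrays, again all but naive replicate 3 (adjusted p from 0.061 to 0.235), while the CpG call held without each array. After Poly(I:C) re-stimulation Lcn2 was 2.46 above naive (SE 1.06, adjusted p = 0.195), with within-slide differences of 0.36, 1.07 and 5.96. Without naive replicate 3 the 3 calls of Lcn2 held, with differences of 5.71, 6.30 and 5.32. After acute stimulation Lcn2 was called for no ligand, with differences between −0.17 (LPS) and 2.71 (CpG, adjusted p = 0.254).

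Re-stimulated cells differed by ligand for Lcn2. In a fit of all 9 groups, CpG exceeded Poly(I:C) by 4.66 (SE 1.24, adjusted p = 0.0231). Lcn2 was the 1 call among 42 comparisons of members between re-stimulated ligands (8.88% of 26339 probes were called in either direction for CpG against Poly(I:C)). In the other pairs 0.0514%, 1.85% and 2.1% of probes were called for LPS against CpG, Pam3CSK4 and Poly(I:C), 0.147% for CpG against Pam3CSK4 and 12.8% for Pam3CSK4 against Poly(I:C). Pam3CSK4 exceeded Poly(I:C) by 3.68 (SE 1.24, adjusted p = 0.0556) and LPS exceeded it by 4.07 (SE 1.39, adjusted p = 0.159). No member was called in the 42 comparisons when any 1 of the 3 CpG re-stimulated arrays, or Poly(I:C) re-stimulated replicate 1 or 2, was left out.

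Saa3 (chromosome 7, 53970389 to 53970448 in mm9) lay at 9.77, 10.07 and 13.51 on the naive arrays, replicate 3 being the highest. Acute LPS gave 14.70, 14.18 and 15.85, acute CpG 16.92, 17.78 and 16.75, acute Pam3CSK4 16.91 and 15.66, and acute Poly(I:C) 12.18, 13.12 and 14.13. Acute LPS, CpG and Pam3CSK4 arrays all lay above the naive arrays, whereas acute Poly(I:C) overlapped them. After re-stimulation Saa3 lay at 18.82 on both LPS arrays, at 18.72 on all 3 CpG arrays and all 3 Pam3CSK4 arrays, and at 17.37, 17.86 and 18.82 for Poly(I:C). Saa3 ranked first of 55681 probes on both LPS arrays and on Poly(I:C) replicate 3, and second on the 6 CpG and Pam3CSK4 arrays, and these arrays of equal rank had equal values after quantile normalisation. No Saa3 spot was saturated. A difference between re-stimulated groups at these first ranks cannot be measured in these values, and the SD of 0 in the LPS, CpG and Pam3CSK4 groups does not measure their spread.

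Acute LPS raised Saa3 by 3.79 (SE 1.04, adjusted p = 0.0402), a 13.9-fold difference, and acute CpG by 6.03 (SE 1.02, adjusted p = 0.031), 65.5-fold. These were the only acute calls among the members, 1 of 7 for LPS where 13.2% of 29933 probes were called higher, and 1 of 7 for CpG where 3.09% of 27954 were. With the replicate block CpG missed the threshold (adjusted p = 0.069), and each of the 2 calls was lost without any 1 of 5 arrays, all but naive replicate 3 (adjusted p from 0.0837 to 0.121 for LPS and from 0.0703 to 0.124 for CpG). Without naive replicate 3 the differences were 4.99 (LPS, adjusted p = 0.000813) and 7.23 (CpG, adjusted p = 0.00184). Acute Pam3CSK4 gave 5.17 (SE 1.27, adjusted p = 0.288) and acute Poly(I:C) 2.03 (SE 1.09, adjusted p = 0.352). Both passed without naive replicate 3, with 6.37 (adjusted p = 0.0351) and 3.23 (adjusted p = 0.0289). No probe was called for acute Pam3CSK4 (0% of 27843 higher), where limma's adjusted p was 0.288 at its lowest, although 3458 probes had p under 0.05 before adjustment.

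Among acute ligands, Saa3 after CpG exceeded Poly(I:C) by 4.00 (SE 0.73, adjusted p = 0.00306) and Pam3CSK4 exceeded Poly(I:C) by 3.14 (SE 0.81, adjusted p = 0.0198). Of all probes, 5.07% and 8.05% were called in these contrasts in either direction. Saa3 after acute LPS minus acute CpG was −2.24 (adjusted p = 0.0378), a contrast in which 17.2% of probes were called and in which slide and ligand cannot be told apart. The first of these 3 calls held in 17 of 17 alternatives, some of which repeat the main test. The second was lost without acute Pam3CSK4 replicate 1 or acute Poly(I:C) replicate 1 or 2 (adjusted p from 0.0589 to 0.191). The third was lost with no filter (adjusted p = 0.0681), with all 27 arrays (adjusted p = 0.153) and without replicate 1 or 2 of either group (adjusted p from 0.0793 to 0.146). No member was called for LPS against Pam3CSK4 (19.7% of probes) or Poly(I:C) (11.8%), or for CpG against Pam3CSK4 (0.0433%).

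On re-stimulation Saa3 rose again over its acute level by 3.91 for LPS (SE 0.48, adjusted p = 0.00247), by 1.57 for CpG (SE 0.29, adjusted p = 0.0445) and by 4.87 for Poly(I:C) (SE 0.58, adjusted p = 0.0209). The tied re-stimulated arrays of LPS, CpG and Pam3CSK4 add no spread to the standard errors of Saa3, here and against naive cells. With the 75th percentile values the SD of these groups was 0.26, 0.33 and 0.22, and the CpG call was lost. Blocking on the replicate number took the CpG call to an adjusted p of 0.0505, and it was lost in 11 of 17 alternatives in all, among them each array left out except acute CpG replicate 3 (adjusted p up to 0.138). The LPS call held in 16 of 16. The Poly(I:C) call held in 13 of 17, and was lost without replicate 1 or 2 of either Poly(I:C) group (adjusted p from 0.0741 to 0.0867). For Pam3CSK4 the difference was 2.44 (SE 0.39, adjusted p = 0.16). Against naive cells the re-stimulated level was higher by 6.90 to 7.70 for the 4 ligands (adjusted p from 0.0111 to 0.0391), and with the replicate block Pam3CSK4 missed the threshold (adjusted p = 0.0582). The LPS and Poly(I:C) calls were lost without naive replicate 1 or 2 or without re-stimulated replicate 1 or 2, the CpG call without re-stimulated replicate 1 or 2, and the Pam3CSK4 call without any array but naive replicate 3. The highest adjusted p was then 0.268 (LPS), 0.0523 (CpG), 0.111 (Pam3CSK4) and 0.0771 (Poly(I:C)). Without naive replicate 3 the differences for Saa3 were 8.10 to 8.90, all called.

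Slpi (chromosome 2, 164179849 to 164179908 in mm9) lay at 12.98, 13.63 and 11.80 in naive cells. Acute LPS gave 11.68, 11.75 and 11.49, below every naive array. The other acute groups overlapped the naive arrays, with 13.66, 13.84 and 13.14 (CpG), 13.37 and 12.23 (Pam3CSK4), and 13.51, 13.70 and 12.26 (Poly(I:C)). After re-stimulation Slpi lay at 16.57 and 16.82 with LPS, 16.68, 16.99 and 17.53 with CpG, 18.49, 16.65 and 17.92 with Pam3CSK4, and 16.88, 17.26 and 15.27 with Poly(I:C). All 11 re-stimulated arrays lay above all 14 naive and acute arrays.

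On re-stimulation Slpi was higher than after acute LPS by 5.06 (SE 0.21, adjusted p = 0.000177), 33.3-fold, and than after acute CpG by 3.52 (SE 0.29, adjusted p = 0.01). It was higher than after acute Poly(I:C) by 3.31 (SE 0.62, adjusted p = 0.0416). The first of these held in all 16 alternatives and the CpG call in all 17. The Poly(I:C) call held in 11 of 17 and was lost without any 1 array but Poly(I:C) re-stimulated replicate 3, with an adjusted p of 0.133 without Poly(I:C) re-stimulated replicate 1. For Pam3CSK4 the difference was 4.89 (SE 0.63, adjusted p = 0.142), with within-slide values of 5.12 and 5.69. Against naive cells Slpi was higher by 3.89 (LPS, adjusted p = 0.0336), 4.26 (CpG, adjusted p = 0.00925), 4.88 (Pam3CSK4, adjusted p = 0.0232) and, for Poly(I:C), by 3.66 (adjusted p = 0.0298). With the replicate block the Pam3CSK4 difference of Slpi had an adjusted p of 0.0641 and was not called. On leaving out 1 array the CpG call held each time. The LPS and Poly(I:C) calls were lost without naive or re-stimulated replicate 1 or 2, and the Pam3CSK4 call without any array but naive replicate 3. The highest adjusted p was then 0.259 (LPS), 0.1 (Pam3CSK4) and 0.113 (Poly(I:C)). Without naive replicate 3 all 4 were called, at 3.16 to 4.38. Acute Slpi differed from naive by −1.17 for LPS (SE 0.46, adjusted p = 0.108) and by −0.01 to 0.74 for the other ligands, with no call. Without naive replicate 3 the acute LPS difference was −1.67 and was called (adjusted p = 0.00379). Acute LPS minus acute CpG was −1.91 for Slpi (adjusted p = 0.0221), a call lost with all 27 arrays (adjusted p = 0.155) and without acute LPS replicate 1 or 3 or acute CpG replicate 1 or 2 (adjusted p from 0.0516 to 0.0854).

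Camp and Ltf were called higher after LPS re-stimulation than after acute LPS and in none of the other 11 comparisons of naive, acute and re-stimulated cells, and replicate 3 lay apart for both in naive and acute cells, as did the neutrophil markers. Camp (chromosome 9, 109749911 to 109749970 in mm9) lay at 11.17 and 12.03 on naive replicates 1 and 2 and at 6.08 on replicate 3. The same split was seen after acute CpG (12.76, 13.93 and 8.79), acute Pam3CSK4 (13.15 on replicate 1 and 8.67 on replicate 3) and acute Poly(I:C) (12.14, 13.45 and 7.19). After acute LPS all 3 arrays were low, at 5.98, 6.52 and 6.82. Re-stimulated arrays were close together for LPS (11.24 and 10.86), CpG (10.57, 10.65 and 10.79) and Pam3CSK4 (10.60, 10.93 and 10.45), and lay at 11.87, 12.86 and 9.48 for Poly(I:C). Replicate 3 was thus the lowest array of every group on the shared slides that holds it, except CpG re-stimulated.

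**Figure D2:**
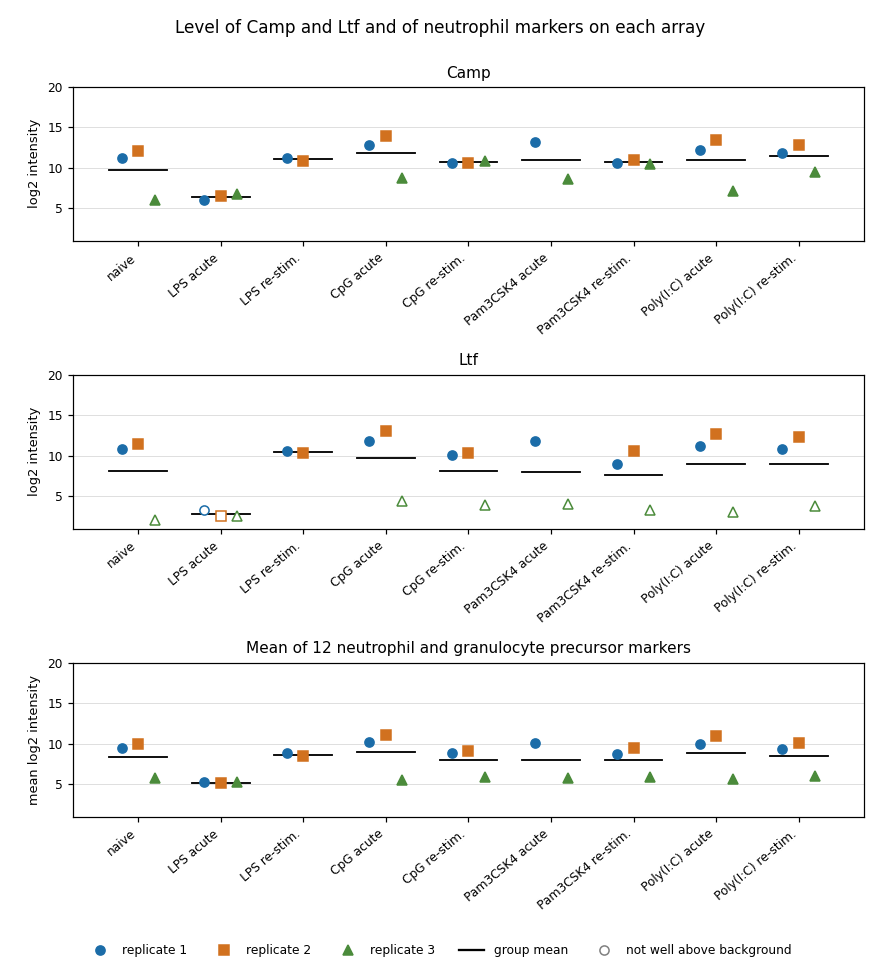
Log2 intensity (vertical axes) of Camp, Ltf and the mean of 12 neutrophil and granulocyte precursor markers on each of 25 arrays in 9 groups (horizontal axis), with the replicate number by symbol, hollow symbols where the probe was not well above background, and the group mean as a line. Ltf lies at 4.41 or lower on all replicate 3 arrays and on the acute LPS arrays, where the mean marker level is 5.99 or lower.

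Ltf (chromosome 9, 110942873 to 110942932 in mm9) showed the same split more sharply. It lay at 10.86 and 11.43 on naive replicates 1 and 2 and was not well above background on replicate 3 (2.09). Acute CpG gave 11.79, 13.05 and 4.41, acute Pam3CSK4 11.84 and 4.02, and acute Poly(I:C) 11.26, 12.64 and 3.02. Re-stimulation gave 10.53 and 10.30 with LPS, 10.13, 10.39 and 3.88 with CpG, 8.92, 10.62 and 3.33 with Pam3CSK4, and 10.79, 12.35 and 3.77 with Poly(I:C). The acute LPS arrays lay at 3.29, 2.51 and 2.51. Neither the 7 replicate 3 arrays of the shared slides nor the 3 acute LPS arrays were well above background, and all 15 other arrays were at 8.92 or higher.

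The mean level of the neutrophil markers split as Ltf did, and as Camp did in naive and acute cells. On re-stimulated replicate 3 Camp lay at 10.79 (CpG), 10.45 (Pam3CSK4) and 9.48 (Poly(I:C)), against 6.08 on naive replicate 3. On the same arrays the marker mean was 5.88, 5.92 and 5.99, against 5.72. The log2 of the summed marker level was 14.97, 15.75 and 12.83, against 12.50. Ly6g, a surface marker of neutrophils, lay at 8.91, 9.60 and 2.54 in naive cells, at 2.98, 2.96 and 3.78 after acute LPS and at 11.67 and 12.77 after LPS re-stimulation. Ly6g was not well above background on the acute LPS arrays or on naive replicate 3. The mean log2 level of the 12 markers was 5.10 to 5.23 on acute LPS arrays and 5.52 to 5.99 on replicate 3 arrays of the shared slides, and 8.47 to 11.03 on the other 15 arrays. The part of these cells in the values of Camp and Ltf, and in those of Lcn2, Saa3 and Slpi for LPS re-stimulated against acute, was not tested. From acute to re-stimulated CpG and Poly(I:C), where Saa3 and Slpi were called higher, 0 of the 12 neutrophil markers were called. With CpG, 1.85% of all probes were called higher and 1.71% lower. The median difference was −1.20 over the markers and 0.06 over all probes. With Poly(I:C), the shares were 2.31% higher and 2.62% lower, and the medians −0.53 and 0.002. Beside such low shares, 0 of 12 does not set the markers apart from other probes. The part of neutrophils in these calls of Saa3 and Slpi was not tested either. On CpG re-stimulated replicate 3, Lcn2 and Slpi lay at 17.45 and 17.53, Ltf was not well above background, and the log2 of the summed marker level was 14.97, against 12.68 on acute CpG replicate 3.

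Against acute LPS, LPS re-stimulated cells had higher Camp by 4.61 (SE 0.30, adjusted p = 0.000466) and Ltf at least 199.9-fold higher (adjusted p = 0.000177), the bound being taken against the higher of each acute array's own value and its lowest value counted as well above background. Each acute array's own value was the higher of these, so this bound equals the fold of the group means, although no acute LPS array was well above background. It holds for the deposited values alone, where the log2 difference of Ltf was 7.64, and that difference was 4.36 with normexp and 4.05 with all 27 arrays. Over the 12 markers of neutrophils, 9 were tested and 5 were called higher in the same comparison, where 17.2% of all probes were. The median difference of the tested markers was 2.45, against −0.02 for all probes. The calls of Camp and Ltf were both lost in a single fit over all 9 groups (adjusted p = 0.0569 for Camp and 0.105 for Ltf) and with slide as a random block (0.0541 and 0.0598), and that of Ltf also with all 27 arrays (adjusted p = 0.244). The 2 LPS re-stimulated arrays lay on slides 1 and 2, and no array of slide 3 entered. In the other 11 comparisons neither Camp nor Ltf was called, and with the replicate block Camp was called higher after acute Poly(I:C) than in naive cells (1.17, adjusted p = 0.0493). Within slides, all acute arrays of CpG, Pam3CSK4 and Poly(I:C) lay above the naive array for both genes, Camp by 1.59, 1.90 and 2.71 with CpG, by 1.98 and 2.59 with Pam3CSK4 and by 0.97, 1.42 and 1.11 with Poly(I:C). Ltf lay higher by 0.40 to 2.31, with neither array of slide 3 well above background. Camp differed by −1.16 (CpG, adjusted p = 0.632), −0.25 (Pam3CSK4) and 0.48 (Poly(I:C)) from acute to re-stimulated. The within-slide differences for CpG were −2.19, −3.28 and 2.00, so replicate 3 went the other way. Without acute CpG replicate 3 the Camp difference was −2.67 and was called lower (adjusted p = 0.0189). After acute LPS, Camp differed from naive by −3.32 (adjusted p = 0.146) and the mean of Ltf was 2.77 against 8.13 (adjusted p = 0.146), with 0 of 3 acute LPS and 2 of 3 naive arrays well above background, and neither gene was called. Without naive replicate 3 both were called (adjusted p = 0.000296 for Camp, with a difference of −5.16, and 8.06e-05 for Ltf). Acute LPS minus acute CpG was −5.39 for Camp (adjusted p = 0.0268), with the other slides of acute LPS as above, and was not called with all 27 arrays (adjusted p = 0.148) or without any 1 acute LPS array or acute CpG replicate 1 or 2 (adjusted p from 0.0528 to 0.133). A second Camp probe (109749901 to 109749950), which overlaps the first, gave the same direction in all 12 comparisons and the same call, with a difference of 4.36 after LPS re-stimulation.

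Fpr1 and Fpr2 lay at 7.67 or lower on naive replicates 1 and 2 and at 11.09 or higher on all other arrays, naive replicate 3 included. Fpr1 (chromosome 17, 18013609 to 18013668 in mm9) lay at 6.69 and 7.67 on naive replicates 1 and 2 and at 14.36 on naive replicate 3. Acute LPS gave 15.72, 15.16 and 15.69, acute CpG 13.45, 13.69 and 15.63, acute Pam3CSK4 13.53 and 15.24, and acute Poly(I:C) 11.09, 11.83 and 15.00. Re-stimulation gave 16.31 and 16.38 with LPS, 15.51, 15.59 and 15.57 with CpG, 15.99, 15.65 and 15.56 with Pam3CSK4, and 12.95, 13.37 and 15.35 with Poly(I:C). Replicate 3 was the highest of its group in naive cells, after acute CpG and acute Pam3CSK4, and in both Poly(I:C) groups.

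**Figure D3:**
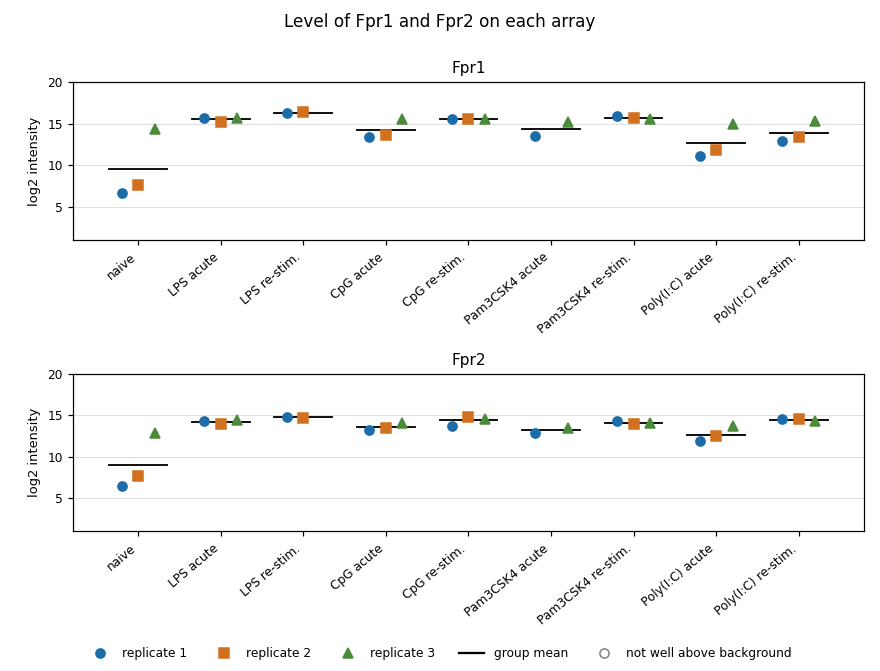
Log2 intensity (vertical axis) of Fpr1 and Fpr2 on each of 25 arrays in 9 groups (horizontal axis), with the replicate number by symbol and the group mean as a line. Naive replicates 1 and 2 lie at 7.67 or lower for both genes, and naive replicate 3 lies at 14.36 for Fpr1 and 12.88 for Fpr2, within or near the range of stimulated cells.

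Fpr2 (18030540 to 18030599 on the same chromosome) lay at 6.54, 7.63 and 12.88 in naive cells. Acute LPS gave 14.28, 13.93 and 14.47, acute CpG 13.19, 13.50 and 14.02, acute Pam3CSK4 12.85 and 13.52, and acute Poly(I:C) 11.95, 12.45 and 13.65. Re-stimulated cells had 14.80 and 14.72 with LPS, 13.72, 14.84 and 14.59 with CpG, 14.29, 13.99 and 14.11 with Pam3CSK4, and 14.57, 14.59 and 14.31 with Poly(I:C). All re-stimulated arrays lay above every naive array for Fpr2. Of the acute groups, only LPS and CpG did so.

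Against naive cells Fpr1 was higher by 5.95 after acute LPS (SE 1.92, adjusted p = 0.0646) and Fpr2 by 5.21 (SE 1.56, adjusted p = 0.0528), the lowest p of the 8 acute differences. The other acute differences lay between 3.07 (Fpr1, Poly(I:C)) and 4.81 (Fpr1, Pam3CSK4). In fits of 2 groups on the deposited values, with all 3 naive arrays and no block, no receptor was called against naive cells. Without naive replicate 3 both were called in all 8 comparisons with naive cells. One fit over all 9 groups, naive replicate 3 included, called Fpr2 in all 8 (adjusted p from 0.000373 to 0.0264) and Fpr1 in 6, all but acute Pam3CSK4 and acute Poly(I:C). With other values of the arrays, median scaling called both in all 8, and the 75th percentile and normexp called both after acute LPS and Fpr2 after CpG re-stimulation. Without it the acute LPS differences were 8.35 (Fpr1, adjusted p = 8.87e-05) and 7.14 (Fpr2, adjusted p = 0.000139), and the smallest of the 8 acute differences were 5.46 for Fpr1 (acute Poly(I:C), adjusted p = 0.0495) and 5.60 for Fpr2 (acute Poly(I:C), adjusted p = 0.00971). On slide 3 alone, where the naive array is replicate 3, Fpr1 was higher by 0.63 to 1.26 after the acute ligands CpG, Pam3CSK4 and Poly(I:C) and Fpr2 by 0.64 to 1.13. Re-stimulated Fpr2 was 5.11 to 5.74 above naive and re-stimulated Fpr1 4.32 to 6.77, with adjusted p from 0.0793 to 0.234. With the replicate block both were called for LPS re-stimulation against naive cells, at 9.17 (Fpr1, adjusted p = 0.00996) and 7.68 (Fpr2, adjusted p = 0.0106), a fit in which naive replicate 3 has no LPS partner.

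Neither receptor was called lower on re-stimulation. Fpr1 was 0.82 higher after LPS re-stimulation than after acute LPS (SE 0.24, adjusted p = 0.0443), a 1.76-fold difference. Over 16 alternatives the difference lay between 0.50 and 1.34 with an adjusted p up to 0.718, and the call held in 7. The call was lost, among others, in the fit over all 9 groups and with slide as a random block. It was lost when the replicate was a block (adjusted p = 0.0559) and without acute LPS replicate 1 or 2 or either LPS re-stimulated array (adjusted p from 0.062 to 0.17). For the other ligands Fpr1 differed by 1.25 to 1.35 (adjusted p from 0.237 to 0.521), and for CpG it was called without acute CpG replicate 3 (1.99, adjusted p = 0.0103). Fpr2 differed by 0.53 with LPS (SE 0.23, adjusted p = 0.121), 0.82 with CpG, 0.94 with Pam3CSK4 and 1.80 with Poly(I:C) (SE 0.43, adjusted p = 0.0656), none of them called. Without acute Poly(I:C) replicate 3 the last was 2.29 and was called (adjusted p = 0.0182).

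**Figure D4:**
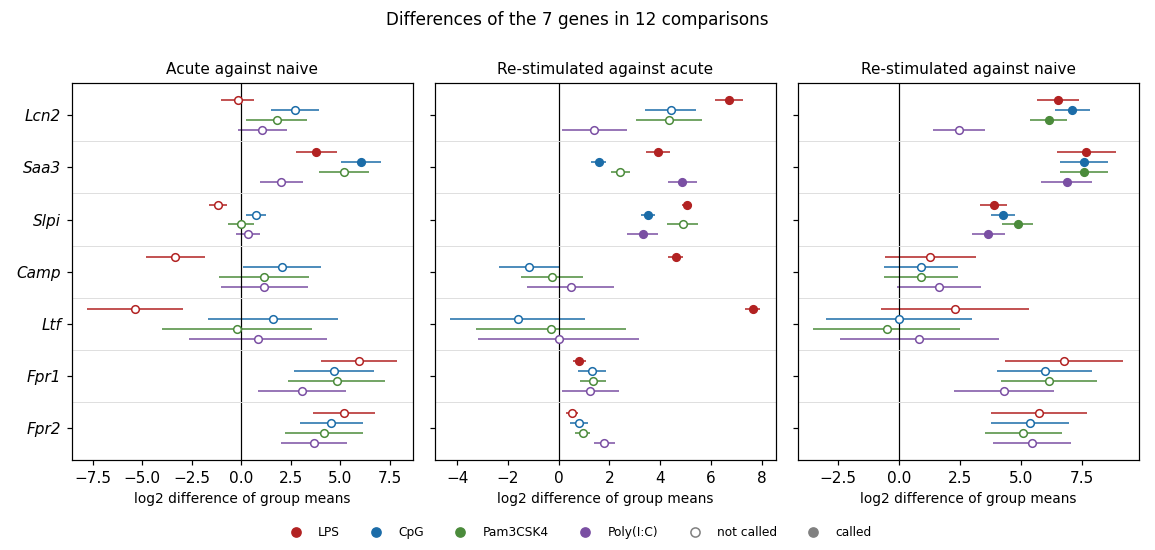
Log2 difference of group means (horizontal axis) for the 7 genes (vertical axis) in acute against naive, re-stimulated against acute and re-stimulated against naive cells, with 1 point per ligand, bars of 1 limma standard error and filled points for calls. Re-stimulated against acute cells, Slpi lies between 3.31 and 5.06 for the 4 ligands, and Camp and Ltf are filled for LPS only.

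Counted over the 7 members, LPS re-stimulation gave 6 calls against acute LPS, all higher, where 17.2% of 28592 probes were called higher. Fpr2 was the member not called. The median difference of the members was 4.61, against −0.02 over all probes. CpG gave 2 (Saa3 and Slpi), where 1.85% of 25739 probes were called higher, and Poly(I:C) 2 (the same genes), where 2.31% of 27139 were. Pam3CSK4 gave 0, as over all probes (0% of 25430, the lowest adjusted p being 0.128, with 3461 at p under 0.05 before adjustment). Against naive cells, the re-stimulated groups had 3 members called higher for LPS (3.27% of 27915 probes), 3 for CpG (6.65% of 28176), 3 for Pam3CSK4 (2.61% of 27945) and 2 for Poly(I:C) (4.79% of 28411). Acute Poly(I:C) had 0 members called, where 3.8% of 28426 probes were higher. No member was called lower in any of the 12 comparisons. Of all probes, lower calls made up 13.2%, 2.63%, 0% and 2.23% after acute LPS, CpG, Pam3CSK4 and Poly(I:C), 17%, 1.71%, 0% and 2.62% from acute to re-stimulated in the same order of ligands, and 2.39%, 6.45%, 2.74% and 4.23% from naive to re-stimulated. The acute groups are shared between comparisons, as are the naive arrays, so the counts are not independent of each other.

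Differences between ligands in the change from acute to re-stimulated were tested for the 7 members in 6 ligand pairs, and 0 of 42 were called (of all probes, 7.24%, 8.2% and 4.09% for LPS minus CpG, Pam3CSK4 and Poly(I:C), 0.00378% and 0.0396% for CpG minus Pam3CSK4 and Poly(I:C), and 0.141% for Pam3CSK4 minus Poly(I:C)). The largest of these for Lcn2 was LPS minus Poly(I:C), 5.31 (SE 1.86, adjusted p = 0.113), and for Saa3 CpG minus Poly(I:C), −3.30 (SE 1.03, adjusted p = 0.25). With the replicate block 2 of the 42 were called.

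Over related genes, 40 antimicrobial and acute phase genes were listed, of which 37 were on the array. Mpo, Elane, Prtn3, Ctsg, Ngp, Retnlg, S100a8 and S100a9 are in this list and also among the neutrophil markers above. Rises in the 2 lists are thus in part the same. On LPS re-stimulation against acute LPS 12 of 25 tested were called higher and 4 lower, with a median difference of 0.89 against −0.02 for all probes. Of all probes 17.2% were called higher and 17% lower there. For CpG 2 of 28 were higher and 0 lower (1.85% and 1.71% of all probes), and for Poly(I:C) 1 of 28 and 0 (2.31% and 2.62%). Pam3CSK4 had 0 of 26 (0% of all probes). S100a9 (a calcium-binding protein of neutrophils and monocytes) was at least 3997-fold higher after LPS re-stimulation (adjusted p = 8.59e-05), and Ly6g at least 506-fold (adjusted p = 0.000213). Ngp, a neutrophil granule protein, was at least 121-fold higher (adjusted p = 0.000213), and Chi3l3, a chitinase-like protein, was 6.83 higher on the log2 scale (adjusted p = 0.000177). These 4 rises were the largest of the listed genes, and S100a9, Ly6g and Ngp are neutrophil markers. The bounds given for S100a9, Ly6g and Ngp hold for the deposited values alone, as for Ltf above, and are no lower limit under other processing. Lyz1, a lysozyme, was the antimicrobial gene with the largest fall, −1.63 for LPS (adjusted p = 0.00368). Saa1, named after its values were seen, is a relative of Saa3 whose probe was called with LPS (3.67), CpG (1.71) and Poly(I:C) (4.76).

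Of 7 genes of the formyl peptide receptor family and its ligand that were on the array, 6 were tested. Against naive cells 2 were called higher after acute LPS, Fpr-rs3 (2.36, adjusted p = 0.00319) and Fpr-rs6 (3.85, adjusted p = 0.0243). Of all probes 13.2% were called higher there. On LPS re-stimulation against acute LPS 1 was higher, Fpr1, and 1 lower, Anxa1 (−1.45, adjusted p = 0.00428), which codes for annexin A1, a ligand of Fpr2. Of all probes 17.2% were called higher and 17% lower in that comparison, so 1 of 6 each way is near these shares. After CpG re-stimulation 1 was higher than after acute CpG, Fpr3 (at least 2.81-fold in the deposited values, adjusted p = 0.03), where 1.85% of all probes were called higher. Anxa1 was also lower than in naive cells after re-stimulation with LPS (−1.98), CpG (−1.55) and Pam3CSK4 (−1.98). Fpr-rs3 was also called higher after acute CpG and in the 4 re-stimulated groups against naive cells (1.95 to 2.31). The family medians against naive cells were 3.103 after acute LPS and 3.48 after LPS re-stimulation, where the median of all probes was within 0.01 of 0, and naive replicate 3 enters these.

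Among 10 transcription regulators known for these genes, Nfkb1 was called higher in 3 of the 4 acute comparisons (2.35 with LPS, 2.63 with CpG, 1.96 with Poly(I:C)), the only listed gene in 3 or more. It was lower after re-stimulation with LPS (−1.67, adjusted p = 0.00419) and CpG (−1.64, adjusted p = 0.0155). Nfkbiz, which codes for IkB-zeta and is needed for Lcn2 expression, fell on LPS re-stimulation by 3.23 (adjusted p = 0.000999), while Lcn2 was 6.71 higher in that comparison. The macrophage gene Mertk, a receptor for apoptotic cells, fell by 3.14 in the same comparison (adjusted p = 0.00223). Of the 7 macrophage markers, 1 was higher there, Csf1r (1.07, adjusted p = 0.0126), 2 were lower, Mertk and Itgam (−1.03, adjusted p = 0.0156), and the median difference of the 7 was −0.09. Of all probes 17.2% were called higher and 17% lower in that comparison. Csf1r and Itgam were named after their values were seen. Cebpb, named after its values were seen, was higher by 2.56 after re-stimulation with LPS (adjusted p = 0.000679) and by 1.72 with Poly(I:C) (adjusted p = 0.0171). The regulators as a list had 3 higher and 4 lower for LPS, and 0 and 1 for CpG, 0 and 0 for Pam3CSK4 and 1 and 0 for Poly(I:C), beside the shares of all probes given for the antimicrobial list.

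The genes whose level was most like that of each member, by Pearson correlation over the 25 arrays, were described without a test, since the arrays share slides, cultures and ligands. For Saa3 they were Saa1 (r = 0.99), Metap1 (0.93) and Gpr31c (0.93), and for Fpr2 Fpr-rs6 (0.96), Aoah (0.94) and Lmo4 (0.93). Ltf was most like Chi3l3 (0.99), Stfa1 (0.99) and Gm6522 (0.98), and Camp most like BC100530 (0.91), Stfa2l1 (0.91) and Caskin2 (0.90). Slpi was most like Gm10872 (0.95), Slamf6 (0.95) and NAP111374-1 (0.93), Lcn2 most like 2010005H15Rik (0.93), Tm4sf1 (0.92) and Ms4a4a (0.92), and Fpr1 most like Lox (0.93), Fpr-rs6 (0.93) and Fpr2 (0.92). Among the members, r was 0.92 between Fpr1 and Fpr2, 0.89 between Camp and Ltf and 0.82 between Lcn2 and Slpi, and −0.45 between Fpr1 and Ltf. Whether probes of related genes, such as Saa1 and Saa3 or Fpr2 and Fpr-rs6, bind each other's RNA was not tested.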

How the data were processed

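Total RNA (200 ng, Cy3) of each sample was hybridised to an Agilent 1-colour array scanned with Feature Extraction 10.7.3.1. Per the labels and methods, the authors made the deposited log2 values from median spot intensity less the background intensity by RMA background correction and quantile normalisation with limma (3.26.9 in the submitters' processing notes). Made again from the deposited intensities, the values had a median absolute difference of 2.8e-10 and a largest one of 0.997. Of 27 arrays, 25 had normalised values and were used. Groups were compared in pairs with limma 3.58.1 (R 4.3.3) over probes that at least 2 arrays of 1 group or the other detected well above background, with Benjamini-Hochberg adjustment over all tested probes and a call at adjusted p below 0.05 and 1.5-fold. Ligands were compared in 1 fit over 9 groups. The script was tested on simulated data. A replicate number marks a shared slide except for acute LPS, and same-numbered samples deviated together in the comparisons with 3 pairs that do not involve acute LPS (r from 0.12 to 0.48), so the block is given beside calls it changed. The members and lists were chosen with earlier results of these data known. Beyond the members, genes of the lists were named where they had the largest called rises or falls from acute to re-stimulated cells, or were called in 3 or more acute comparisons. Probe positions are in mm9 as the arrays' files give them, and promoters are in GRCm38.p6. Alternatives were other normalisations, the values made again, no filter, other fits, slides 1 and 2 only, a gene's second probe, all 27 arrays and each array left out. Some of them repeat the main test. The second probe differs from it for Camp alone. The 9-group fit repeats it for ligand contrasts, and slides 1 and 2 repeat it for LPS re-stimulated against acute. Values made again nearly repeat it. Exact repeats cannot change a call, so a tally of alternatives holds fewer separate checks than its number.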

Additional observations from a re-analysis of the deposited data

Results flagged for a closer look

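Both arrays without deposited normalised values, LPS re-stimulated replicate 3 and acute Pam3CSK4 replicate 2, had 92.3% and 99.9% of probes well above background, and on the second 22.6% of spots were non-uniform. They entered only the alternative with all 27 arrays. Normalised with the other 25, LPS re-stimulated replicate 3 lay above the highest naive array for Lcn2 (16.48), Saa3 (18.81), Slpi (16.01), Fpr1 (15.39) and Fpr2 (14.30), and acute Pam3CSK4 replicate 2 did for Lcn2 (14.20), Saa3 (17.22) and Camp (12.76). On LPS re-stimulated replicate 3, Camp (9.84) and Ltf (3.99) lay within the naive range. These are log2 intensities and were not tested. No group had more than 3 arrays, so no array was tested for standing apart within its group.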

How the results depend on the processing

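Of the calls above, those of Lcn2, Saa3 and Slpi for LPS re-stimulated against acute (16 of 16 alternatives), of Slpi for CpG re-stimulated against acute (17 of 17) and of Lcn2 and Slpi for CpG re-stimulated against naive (17 of 17) held throughout. The highest adjusted p was 0.0139, 0.0205 and 0.0132 for the first 3, then 0.0461, 0.0386 and 0.0459. Among the ligand contrasts, Saa3 for acute CpG minus acute Poly(I:C) also held in 17 of 17. These tallies include repeats of the main test, as given with the processing. The other calls were lost in at least 1 alternative, and the cause was not tested. The number of arrays, 2 or 3 a group, and naive replicate 3 limit the precision, and the first ranks of Saa3 limit its re-stimulated values. For LPS re-stimulated against acute, no alternative separates slide from stimulation, since acute LPS lay on other slides with other scan days and another design file. That these calls held throughout does not remove this limit.

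The number of members called depended on the fit. For acute against naive (LPS 1, CpG 1, Pam3CSK4 0, Poly(I:C) 0), median scaling gave 5, 5, 3 and 3, the 9-group fit 3, 3, 2 and 1, and slide as a random block 3, 3, 3 and 2. LPS gave 3 with the 75th percentile, 3 with normexp and 2 with all 27 arrays, and LPS and CpG gave 0 with no filter. For re-stimulated against acute (6, 2, 0 and 2), LPS gave 3 with the 9-group fit and 3 with the random block. CpG gave 1 with the 75th percentile and 1 with no filter, Pam3CSK4 2 with median scaling, 1 with the 9-group fit and 2 with the random block, and Poly(I:C) 1 with no filter. For re-stimulated against naive (3, 3, 3 and 2), median scaling gave 6, 6, 5 and 6, and the 9-group fit and the random block each 5, 5, 5 and 4. LPS gave 1 with all 27 arrays and 0 with no filter, and Poly(I:C) 1 with no filter. Slides 1 and 2 only, chosen after seeing the data, gave 6, 4, 4 and 3 for acute against naive, 4 for CpG and 4 for Poly(I:C) re-stimulated against acute, and 5, 5, 5 and 4 against naive. Among ligand differences, the 5 acute calls became 2 with all 27 arrays, 8 with the random block and 24 with slides 1 and 2. The 1 re-stimulated call became 2 with the 75th percentile, normexp or the random block, 0 with all 27 arrays and 8 with slides 1 and 2, and the 0 differences in change became 15 with slides 1 and 2.

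With the replicate block, which pairs samples by number, the counts became 0 for acute CpG and 1 for acute Poly(I:C) against naive, 1 for CpG re-stimulated against acute, and 5 for LPS and 0 for Pam3CSK4 re-stimulated against naive. The ligand differences became 10 among acute, 2 among re-stimulated and 2 among changes, and the block changed no other count by over 1.5 times. It turned the sign of Slpi (0.41) and Ltf (1.45) in acute Pam3CSK4 against naive and of Camp (−0.55) and Ltf (−0.73) in LPS re-stimulated against naive, none of them called.

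Leaving out 1 array gave 0 to 6 members called for acute LPS, 0 to 3 for acute CpG, 0 to 3 for acute Pam3CSK4 and 0 to 3 for acute Poly(I:C) against naive. It gave 5 to 6, 1 to 5, 0 to 0 and 0 to 2 for LPS, CpG, Pam3CSK4 and Poly(I:C) re-stimulated against acute, and 0 to 5, 2 to 5, 0 to 5 and 0 to 4 against naive. The ligand differences ranged from 2 to 7 (acute), 0 to 2 (re-stimulated) and 0 to 0 (change). The highest counts against naive cells came without naive replicate 3. A group left with 1 array was assumed to vary like the other group.

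Changes of sign were limited to values that were not called. With the 75th percentile these were Slpi in acute Pam3CSK4 (0.32), Ltf in Poly(I:C) re-stimulated against acute (0.11) and Ltf in CpG re-stimulated against naive (−0.23). With normexp they were Slpi in acute Pam3CSK4 (0.025) and Ltf in CpG re-stimulated against naive (−0.45). With median scaling they were Lcn2 in acute LPS (0.038), Slpi in acute Pam3CSK4 (0.25), and Camp for Pam3CSK4 (0.17) and Ltf for Poly(I:C) (0.19) re-stimulated against acute. With the random block they were Slpi (0.071) and Ltf (0.77) in acute Pam3CSK4, and with all 27 arrays Ltf in acute Pam3CSK4 (0.57), Poly(I:C) re-stimulated against acute (0.030) and LPS re-stimulated against naive (−0.30). With slides 1 and 2 they were Slpi (0.060) and Ltf (0.69) in acute Pam3CSK4, Lcn2 (−0.75) and Camp (−0.43) for Poly(I:C) re-stimulated against acute, and against naive Camp (−0.55) and Ltf (−0.73) for LPS, Camp (−0.99) and Ltf (−0.89) for CpG and Camp (−0.84) for Pam3CSK4 re-stimulated.

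On leaving out 1 array, signs turned in these ranges. Acute against naive gave −0.997 to 0.41 for Lcn2 with LPS, −1.40 to 4.29 for Ltf with CpG, −0.45 to 4.03 for Lcn2, −1.09 to 3.39 for Camp, −0.57 to 0.56 for Slpi and −4.11 to 3.71 for Ltf with Pam3CSK4, and −0.67 to 3.04 for Camp, −0.15 to 0.79 for Slpi and −2.17 to 3.82 for Ltf with Poly(I:C). Re-stimulated against acute gave −4.28 to 0.51 for Ltf with CpG, −2.49 to 1.99 for Camp and −4.22 to 3.61 for Ltf with Pam3CSK4, and −1.39 to 1.74 for Camp and −2.98 to 2.60 for Ltf with Poly(I:C). Re-stimulated against naive gave, for Camp, −0.55 to 2.43 with LPS, −0.93 to 2.04 with CpG, −0.94 to 2.03 with Pam3CSK4 and −0.20 to 2.78 with Poly(I:C), and for Ltf −0.73 to 3.94, −3.01 to 2.13, −3.52 to 1.64 and −2.18 to 3.44 in the same order.

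Median scaling also moved the split of calls over all probes. In acute CpG against naive, 1015 were higher and 85 lower, against 863 and 735 with quantile normalisation, in acute LPS 2266 and 1088 against 3955 and 3963, and in CpG re-stimulated against naive 2788 and 498 against 1874 and 1817. It moved the median of all probes to 0.78 in the last of these.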
